A study of Mus musculus with 6 samples.

Results

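Peaks of methylated DNA that lay close together along the mouse chromosomes are described here. Each chromosome was divided into fixed windows of 100 kb counted from its first base, every peak was placed by its midpoint, and a window was called crowded when it held 24 or more peaks. The members were thus chosen by the measured number of peaks per window. The rule kept 89 windows with 2533 peaks, of 83968 peaks on 16 chromosomes and 84111 in the list. The 89 windows were 0.513% of the 17345 windows that held a peak. Windows with 1 to 10 peaks, called sparse below, numbered 15673 and served as the comparison, and 1583 windows held 11 to 23 peaks.

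The study sequenced DNA pulled down with MBD2, a protein that binds methylated CpG dinucleotides (MBD-seq), from primary chondrocytes of knee articular cartilage, cultured from mice at postnatal days 3 to 5. The control group carried floxed Dnmt1 (labelled Dnmt1 flox, n = 3), and the conditional knockout group (cKO) was Prx1-Cre;Dnmt1 flox/flox (n = 3). All 6 samples thus carry the floxed allele. The Prx1 promoter drives Cre in limb mesenchyme, so other cells of the mouse keep the floxed gene. The values available are those of 1 peak list made after merging 3 datasets, and the peak names assign them to no group. No peak has a value per sample, the depth of each sample is unknown, and control and cKO were not compared. The list's own name calls its regions Dnmt1-mediated, and which library the caller used as background is not given in the sources used here, so what a fold compares is known only as peak over background. Peak positions carry no transcript levels, so the labelled cell type was not checked against markers of cartilage.

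Dnmt1 copies methylation of CpG dinucleotides onto the new DNA strand after replication. In mammalian genomes most CpG dinucleotides are methylated, those inside transcribed gene bodies included, whereas CpG islands, the dense CpG stretches at many gene starts, usually stay unmethylated. MBD capture favours fragments with several methylated CpG, so a peak reports methylation and CpG density together.

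Sequences at 4 gene starts of crowded windows are shown because they differ in CpG number and in whether a peak overlapped them. Each run is the 250 bases before the annotated gene, 5′ to 3′ on the strand of the gene, from RefSeq on GRCm38.p6, with every CpG in capitals. A CpG reads the same on both strands.
Cort: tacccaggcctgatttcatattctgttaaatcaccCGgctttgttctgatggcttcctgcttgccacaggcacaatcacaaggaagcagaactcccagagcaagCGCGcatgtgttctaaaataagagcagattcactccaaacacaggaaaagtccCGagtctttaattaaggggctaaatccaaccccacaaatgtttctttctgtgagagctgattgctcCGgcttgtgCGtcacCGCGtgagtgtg
Rnf223: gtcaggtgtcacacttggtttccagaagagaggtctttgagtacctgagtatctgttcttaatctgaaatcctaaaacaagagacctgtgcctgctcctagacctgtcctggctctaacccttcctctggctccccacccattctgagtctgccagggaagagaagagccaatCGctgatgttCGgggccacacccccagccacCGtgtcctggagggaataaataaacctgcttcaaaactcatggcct
Gm40367: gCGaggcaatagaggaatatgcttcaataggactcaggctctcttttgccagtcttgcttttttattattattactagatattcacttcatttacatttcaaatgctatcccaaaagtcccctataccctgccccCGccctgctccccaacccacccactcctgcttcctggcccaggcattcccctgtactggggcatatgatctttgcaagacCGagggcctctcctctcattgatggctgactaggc
Ankrd13a: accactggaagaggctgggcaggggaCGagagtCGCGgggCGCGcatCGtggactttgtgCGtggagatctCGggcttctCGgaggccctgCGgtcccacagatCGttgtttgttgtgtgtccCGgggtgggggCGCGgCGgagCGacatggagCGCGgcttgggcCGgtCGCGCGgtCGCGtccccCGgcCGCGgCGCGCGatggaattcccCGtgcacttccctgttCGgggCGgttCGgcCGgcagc
Cort, which encodes the neuropeptide cortistatin, lies on the minus strand and its run (chr4:149126764-149127013) holds 8 CpG. A peak at chr4:149126475-149127397, with a fold enrichment of 19.3 over the caller's background, covered it whole. The Rnf223 run (a RING finger protein; chr4:156130265-156130514, plus strand) holds 3 CpG, and its 3′ part was overlapped by a peak of fold 24.7 at chr4:156130424-156131071. The run of the gene model Gm40367 (chr6:47662342-47662591, plus strand) also holds 3 CpG. It was identical over 250 of 250 bases to the runs of Gm36327 and Gm40364 farther along chromosome 6. Peaks of fold 9.36, 9.63 and 7.05 overlapped the upstream parts of these 3 copies, and reads from identical copies cannot be assigned to one of them with certainty. Ankrd13a (chr5:114774698-114774947, plus strand), in a window of 34 peaks, has 35 CpG in its run and had its nearest peak midpoint 2.35 kb from the start. A further annotated start inside this gene has 44 CpG in the 250 bases before it and no overlapping peak either.

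The number of peaks chose the windows, so the values of this paragraph are a description. Windows with at least 1 peak held a median of 4 peaks, crowded windows a median of 27 and at most 52, and sparse windows a median of 3. Just inside the threshold, 14 windows held 24 peaks and 11 held 25. Just outside it, 17 windows held 23 peaks and 27 held 22. These edge windows had median gene-body coverages of 70.6% and 87.8% inside and 83.2% and 74.3% outside, so the threshold marks no step in the distribution. Crowded windows were 0.513% of windows and held 3.02% of the peaks on chromosomes. Summed peak width covered from 7.75% to 30.0% of a crowded window, with a median of 14%.

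**Figure D1:**
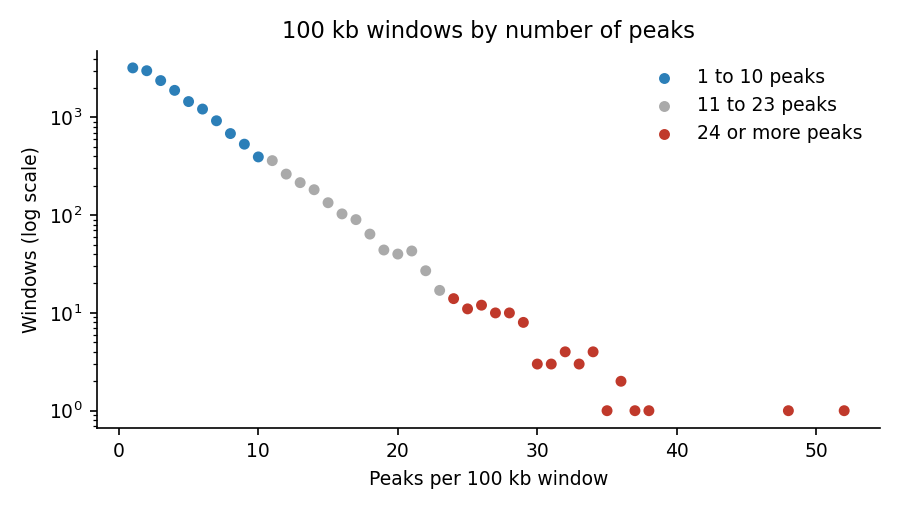
Number of 100 kb windows (log scale) against the number of peaks per window, for windows with at least 1 peak; colours mark windows with 1 to 10, 11 to 23, and 24 or more peaks. The counts fall from the sparse windows to 14 windows at 24 peaks with no gap at the threshold, and the fullest window holds 52.

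Values of single peaks come from the list that chose the windows, so they are also a description. Median fold enrichment was 16.0 in crowded windows, 14.1 in windows with 11 to 23 peaks and 12.8 in sparse windows. Median widths were 451, 407 and 417 bp, and median recovered pileups, the reads stacked at the highest point, were 131, 119 and 131. Neighbouring peak midpoints lay a median of 2.01 kb apart in crowded windows and 8.66 kb apart in sparse ones. These distances follow from the number of peaks per window, which chose the groups. The background that the caller set against each peak was recovered from its fold and p-value, and its lowest value, 6.37 reads, is shared by most of the list. It was the background of 2162 of 2533 peaks in crowded windows (85.4%), of 83.6% with 11 to 23 peaks per window and of 71.3% in sparse windows. Backgrounds at least 10 times the lowest stood behind 1.58% of peaks in crowded windows and 5.99% in sparse ones.

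Crowded windows were filled with genes. On average 82.0% of a crowded window lay in annotated gene bodies, against 68.2% with 11 to 23 peaks and 47.4% in sparse windows. Of the 2533 peaks, 2287 had their midpoint in a gene body (90.3%, 95% Wilson interval 89.1 to 91.4%), where 61.2% of all peaks on chromosomes did. The share was 78.0% with 11 to 23 peaks and 53.6% in sparse windows. It was higher in crowded than in sparse windows on 16 of 16 chromosomes. All peaks of 38 of the 89 windows lay in gene bodies. This was not counted for the other windows, so it is not set against them. Intervals of shares cover counting error only, and since neighbouring windows and peaks are not independent, no test was run over them.

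Gene coverage alone does not give the spacing of the peaks, so density was taken per 100 kb of sequence. In crowded windows it was 31.3 peaks per 100 kb inside gene bodies and 15.3 outside, a ratio of 2.04. The ratio was 1.65 with 11 to 23 peaks per window and 1.28 in sparse windows. Both densities count the peaks that chose the windows, so the ratios are a description.

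**Figure D2:**
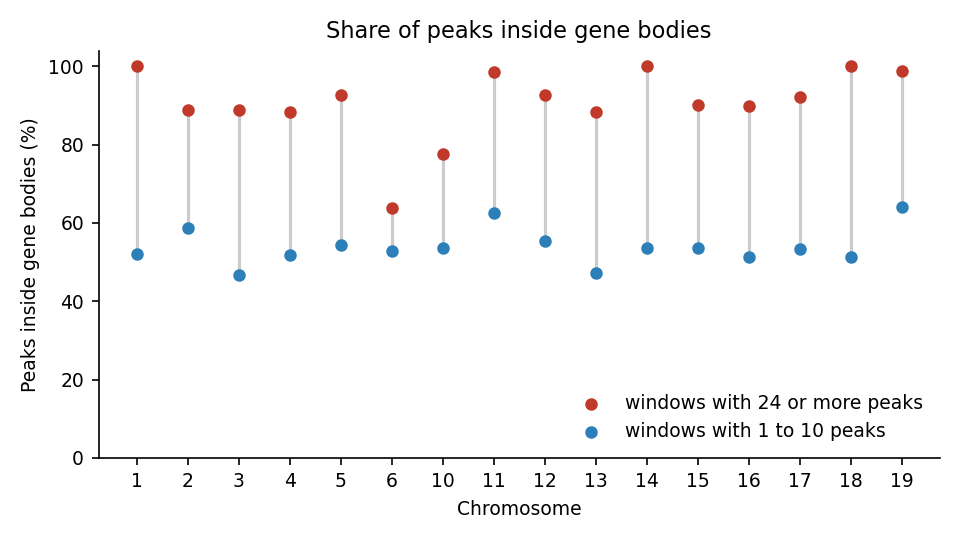
Percent of peaks with their midpoint inside a gene body (vertical axis) on each of 16 chromosomes (horizontal axis), for windows with 24 or more peaks (red) and with 1 to 10 peaks (blue), joined by a line. The red point lies above the blue point on 16 of 16 chromosomes, and chromosomes 13 and 14 have 1 crowded window each.

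By gene type, 300 of 36837 genes had their midpoint in a crowded window (0.814%). Protein-coding genes made up 177 of these 300 (59.0%, interval 53.4 to 64.4%), against 40.8% of genes in sparse windows, and this order held on 10 of 16 chromosomes. The 177 were 1.12% of all protein-coding genes. They lay in 75 of the 89 windows (84.3%, interval 75.3 to 90.4%), whereas 41.7% of sparse windows and 79.7% of those with 11 to 23 peaks held a protein-coding midpoint. Long noncoding RNA (lncRNA) genes were 21.0% in crowded and 27.7% in sparse windows. Pseudogenes were 11.3% and 21.8%, and microRNA genes 6.67% and 2.13%. Windows with 11 to 23 peaks stood close to crowded ones, with 57.1% protein-coding genes and 11.2% pseudogenes. A crowded window held on average 1.99 protein-coding midpoints, against 2.07 with 11 to 23 peaks and 0.737 in sparse windows.

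The windows ranged from those lying mostly in 1 large gene to those holding several genes. A single protein-coding gene covered at least 50% of the window in 51 of 89 (57.3%, interval 46.9 to 67.1%), against 36.3% with 11 to 23 peaks and 30.0% in sparse windows. It covered the whole window in 10 (11.2%, interval 6.22 to 19.5%), against 14.2% of sparse windows, a value inside that interval. Exactly 1 protein-coding gene overlapped 26 windows, 2 or 3 overlapped 39, and 4 or more overlapped 23. Median length of the protein-coding genes, assigned by midpoint, was 20.3 kb in crowded windows, 15.3 kb with 11 to 23 peaks and 19.3 kb in sparse windows. The mean lengths were 39.0, 30.6 and 51.6 kb. Large genes that cover a crowded window but have their midpoint elsewhere, such as Ttn and Dst, do not enter the crowded values. Overlap with a crowded window was found for 240 protein-coding genes, 1.51% of those on covered sequence.

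The fullest window, chr5:115900001-116000000, lay wholly in Cit, which encodes citron kinase, a protein of cell division. Its 52 peaks had folds from 6.10 to 40.4 with a median of 14.5, and widths from 59 to 1882 bp. Pileups ran from 44 to 384 reads, 37 of the 52 peaks had the lowest background, and peaks covered 30.0% of the window. The neighbouring window upstream held 34 peaks, also with Cit as its only protein-coding gene. Second was chr11:118000001-118100000 with 48 peaks, shared by Dnah17, an axonemal dynein heavy chain of cilia and sperm tails, and Pgs1, a phospholipid synthase of mitochondria. Its folds ran from 5.97 to 45.6 with a median of 16.0. Next came chr10:127500001-127600000 with 38 peaks, over Lrp1, a large endocytic receptor, and Stac3, Ndufa4l2, Shmt2 and Nxph4. Its peaks were higher, with folds from 6.10 to 55.1 and a median of 28.9.

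The windows after these carried genes of several kinds. Ttn, the giant spring protein of the sarcomere, had 37 peaks in chr2:76700001-76800000, with a median fold of 16.0 and only 20 peaks at the lowest background. Dst, a cytoskeletal linker, had 36 peaks in chr1:34200001-34300000. The window of Trrap, a subunit of histone acetyltransferase complexes, and Smurf1, a ubiquitin ligase of the BMP pathway, also held 36. Acacb, the acetyl-CoA carboxylase at mitochondria, shared 35 peaks with Foxn4 and Myo1h. Windows of 34 peaks were those of Mier3 and Map3k1, of Tchp, Git2 and Ankrd13a, of the first part of Cit, and of a row of gene models on chromosome 6. Over all 89 windows the median fold of a window ranged from 6.64 to 31.7.

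Counted by gene, 216 protein-coding genes had at least 1 peak of a crowded window in the body. The 9 genes with most such peaks held 352 of them, 13.9% of peaks in crowded windows. Cit led with 82, followed by Dnah17 with 43, Ttn with 37, Dst with 36 and Lrp1 with 32. Abcc4, a drug and nucleotide exporter, and Fryl, a large protein related to Furry, had 31 each. Gcn1, a ribosome-bound activator of the amino acid stress kinase, and Nphp4, a protein of the ciliary base, had 30 each.

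These genes differed in length, so peaks in the whole body were also expressed per 100 kb of gene. Cit reached 53.1 peaks per 100 kb over its 164 kb, Gcn1 52.1 over 57.5 kb and Dnah17 49.5 over 109 kb. Dst was least dense of the 9, at 18.2 per 100 kb over 401 kb, with 36 of its 73 peaks in a crowded window. All protein-coding bodies together held 5.61 peaks per 100 kb. The 9 genes were picked by their number of peaks in crowded windows, so their higher densities are a description. Median folds ran from 11.4 in Abcc4 to 28.9 in Lrp1. Gcn1 and Nphp4 had all of their 30 peaks in crowded windows, whereas Abcc4 had 31 of 58 and Ttn 37 of 69.

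**Figure D3:**
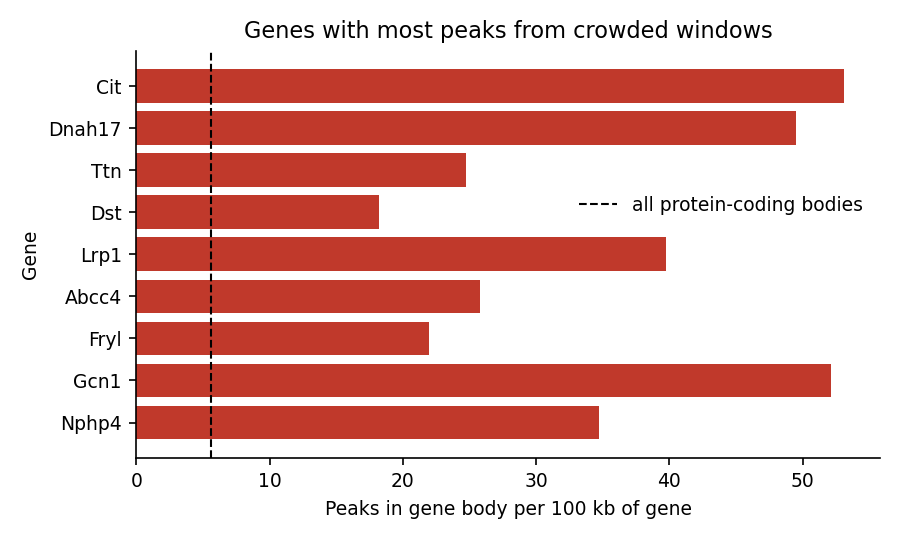
Peaks in the gene body per 100 kb of gene (horizontal axis, bars from 0) for the 9 protein-coding genes with most peaks from crowded windows, ordered from the top by that number; the dashed line is the value for all protein-coding bodies together, 5.61. Cit, Gcn1 and Dnah17 reach 53.1, 52.1 and 49.5, and Dst reaches 18.2. The genes were picked by their number of peaks, so the distance from the dashed line is a description.

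Some crowded windows lay near each other, although most stood alone. Windows directly beside a crowded one held a median of 13 peaks (quartiles 8 and 18), and those beside a sparse window a median of 3 (quartiles 1 and 6). Another crowded window lay within 1 Mb of 36 of the 89 (40.4%), against 26.9% of windows with 11 to 23 peaks and 5.26% of sparse windows that had a crowded one as near. Consecutive windows formed 8 runs, 6 of 2 windows and 2 of 3, and 71 windows stood alone. The longest run by peaks, chr5:114200001-114500000, held 93 peaks over Acacb, Foxn4, Myo1h, Kctd10, Ube3b, Mmab and Mvk. Mvk and Mmab encode mevalonate kinase and an enzyme of vitamin B12 metabolism. Another run of 3, chr4:152300001-152600000, held 88 peaks over Chd5, Kcnab2, Nphp4, Rnf207, Rpl22 and Icmt. The 2 windows of Cit held 86 peaks, those of the chromosome 6 gene models and Pdia4 61, and those at chr17:46500001-46700000 58, over Srf, Ptk7, Cul7, Cul9 and 6 further genes.

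Chromosome 5 held 20 of the 89 windows, 1.5% of its windows with a peak, and chromosome 4 held 14 (1.02%). Chromosomes 13 and 14 held 1 each. On chromosome 5, 9 of 18 consecutive windows between 114200001 and 116000000 were crowded, from Acacb to Cit. This stretch of 1.8 Mb held 406 peaks, 292 of them in its crowded windows, and its emptiest window held 5. On no other chromosome analysed did 2 Mb hold more than 4 crowded windows. Without chromosome 5, the differences from sparse windows in protein-coding content and gene-body share kept their direction.

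Families and pathway lists were then counted by their members in crowded windows, beside 1.12% of protein-coding genes by midpoint and 1.51% by overlap. Of 14 dynein heavy chain genes of cilia (Dnah), 3 had their midpoint there (21.4%), namely Dnah17, Dnah10 and Dnah2. The family's members are long, with a median of 244 kb against 18.6 kb over all protein-coding genes. All 14 had a peak in the body, where 64.3% of all protein-coding genes did. The part of length in this was not tested. Dnah10 had 28 peaks from crowded windows with a median fold of 20.1, and Dnah2 had 25 with a median fold of 17.4. Of 67 protocadherin genes, cell adhesion molecules in gene clusters, 9 overlapped a crowded window, the neighbours Pcdha1 to Pcdha9, and none had its midpoint there. These 9 share their downstream exons and much of 1 window, so they are not 9 separate observations.

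Smaller numbers came from other families. Of 73 potassium channel genes (Kcn), 2 had their midpoint in a crowded window, Kcnab2 and Kcnh3 (2.74%). Of 297 solute carriers, 2 did by midpoint and 3 by overlap, Slc10a4, Slc29a4 and Slc38a1. Lama1, a laminin chain of basement membranes, was the single one of 10 laminin genes to overlap, with 8 of its 19 peaks in the window. Predicted gene models (Gm) had 9 of 793 by midpoint and Rik clones 6 of 318, shares of 1.13% and 1.89%. Of the 32 families counted, 25 had no member overlapping a crowded window. Among these were 725 olfactory receptor genes, 244 Zfp genes, 106 keratin genes, 39 Hox genes and 34 collagen genes. At 1.51% of genes by overlap, a family as small as Hox or collagen would hold few members or none. Zeros of small families therefore do not set them apart from other genes. Of the 725 olfactory receptor genes 42 had a peak in the body, where 64.3% of protein-coding genes did. Their bodies are short, with a median of 0.948 kb against 18.6 kb over all protein-coding genes. The part of length in this share was not tested.

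Lists of genes tied to cartilage and its energy use were counted in the same way. None of 15 cartilage matrix and regulator genes on covered sequence had a midpoint there, and none of 15 genes of hypertrophic chondrocytes, 14 of glycolysis, 17 of the tricarboxylic acid cycle and 10 of the methylation machinery. Of 15 energy-sensing genes, Prkag1, the gamma subunit of AMP-activated kinase, was in one, with 3 peaks of folds from 12.3 to 24.6. At 1.12% of genes, a list of this size would hold few members or none, so these zeros do not set the lists apart from other genes.

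Starts of protein-coding genes stood out from the bodies. In crowded windows 145 starts of 116 genes had a 300-base RefSeq promoter, 250 bases before and 50 after the start. Their median CpG number was 22, against 18 with 11 to 23 peaks per window and 13 in sparse windows. At least 15 CpG were found in 100 of 145 (69.0%), against 58.5% and 47.6%. A peak overlapped 7 of the 145 starts (4.83%, interval 2.36 to 9.63%), where 2.96% of all protein-coding starts were overlapped, and 2.56% in sparse windows. Of the 100 CpG-rich starts none was overlapped, which allows a share of up to 3.0% (3 counts of the total), where 1.22% of all such starts and 1.30% of those in sparse windows were. A difference from sparse windows was therefore not detectable with 100 starts. Among starts with fewer than 15 CpG, 7 of 45 were overlapped (15.6%, interval 7.75 to 28.8%), against 10.2% with 11 to 23 peaks per window and 3.69% in sparse windows. Gm40367, Gm36327 and Gm40364, which have the same 250 bases, enter the 7 and its intervals as separate starts. Shares of starts overlapped follow the number of peaks per window that the rule selected on, here and for the lncRNA starts, and are not a separate difference between the groups.

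The 7 overlapped starts belonged to Cort and Rnf223, shown above, and to the gene models Gm13090, Gm40369, Gm40367, Gm36327 and Gm40364. The last 3 have the same 250 bases and count as 1 sequence. Starts of lncRNA genes, poorer in CpG with a median of 7.5, were overlapped in 12 of 66 cases (18.2%, interval 10.7 to 29.1%). The share was 12.4% with 11 to 23 peaks and 5.83% in sparse windows. These are counts of starts and not of genes, and Gm36185 gave separate starts among the 12.

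Peak density fell towards the starts. In crowded windows it was 0.274 peaks per start per kb at 10 to 20 kb upstream and 0.0483 in the last kb before the start, a ratio of 0.176. It was 0.103 in the first kb of the gene and 0.348 at 10 to 20 kb inside. In sparse windows the corresponding upstream values were 0.0487 and 0.0186, a ratio of 0.381. With 11 to 23 peaks per window the ratio was 0.285. These ratios are set against the peak density that the rule selected on, so they are a description. The last kb before the 145 starts held 7 peaks, so its value is imprecise.

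**Figure D4:**
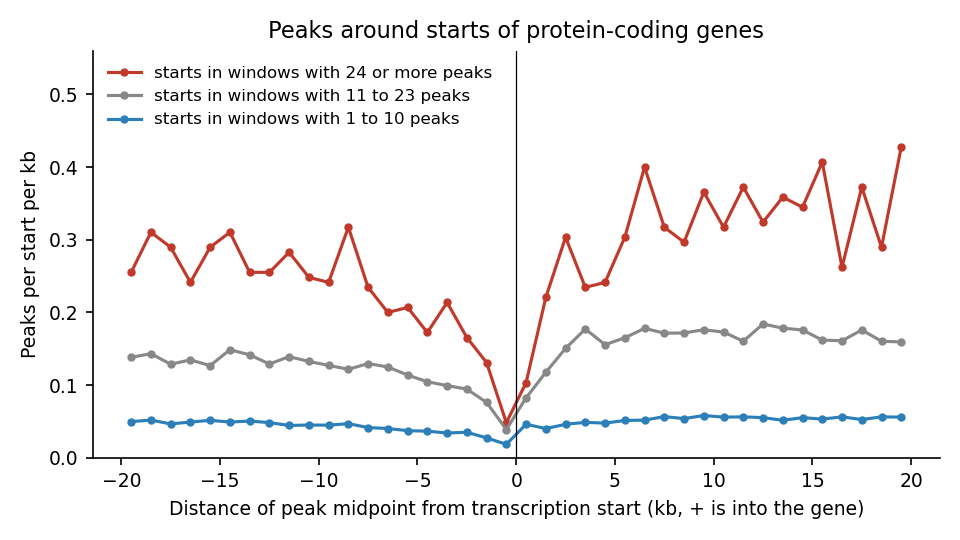
Peak midpoints per start per kb (vertical axis) in bins of 1 kb from 20 kb before to 20 kb after the starts of protein-coding genes (horizontal axis, positive into the gene), for starts in windows with 24 or more, 11 to 23, and 1 to 10 peaks. All 3 lines are lowest in the last kb before the start, at 0.0483, 0.0389 and 0.0186.

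MicroRNA genes were present in 16 of 89 crowded windows (18%, interval 11.4 to 27.2%), against 10.1% with 11 to 23 peaks and 2.92% in sparse windows. They numbered 20, and 16 of them lay inside a protein-coding gene. A peak overlapped the hairpin of 6 of the 20 (30.0%, interval 14.5 to 51.9%), against 28.2% with 11 to 23 peaks and 8.94% in sparse windows. These shares rise with the number of peaks per window, which the rule selected on, and are a description. The mature sequences of 3 of these 6 are shown, all on chromosome 4 or 5, from RefSeq on GRCm38.p6, with the seed (bases 2 to 8), the part that pairs with targets, in capitals.
mmu-miR-7018-5p: gUGAGCAGacagggaguggugggg
mmu-miR-7018-3p: uCACCCUGcugccggcuugcag
mmu-miR-7029-5p: uCUGGACGcucggcugccagcgc
mmu-miR-7030-5p: uGGGGAGGuggcugugcuaguc
mmu-miR-7030-3p: cUUGCUCUguuaucucuccag
The first pair comes from Mir7018 in Hspg2, the gene of perlecan, the next sequence from Mir7029 in Gcn1 and the last pair from Mir7030 in Rab35, a small GTPase of endosomes. The overlapping peaks had folds of 33.5, 40.6 and 23.9, and that at Mir7030 reached only the last bases of the hairpin. The table held 9 mature sequences from 5 of the 6 genes, with none for Mir6970, and no seed was shared among these 9. The other overlapped hairpins were Mir6970 in Skiv2l with a fold of 43.1, Mir6933 in Pgs1 with 19.5 and Mir7004 in Atp9a with 6.65. The liver and intestine microRNAs Mir192 and Mir194-2 lay in a crowded window outside protein-coding genes and had no peak on the hairpin. The data are DNA methylation and say nothing of microRNA levels.

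Some crowded windows departed from the gene-filled pattern. Gene bodies covered under 50% of 6 of the 89, and 6 windows had 10 or more peaks outside genes, together 105 of the 246 such peaks (42.7%). The single window overlapped by no protein-coding gene was chr10:118300001-118400000. It held 25 peaks, 6 pseudogenes (Gm9040, Gm9044, Gm9045, Gm9046, Gm9048 and Gm9049) and a gene-body coverage of 14.7%. The pseudogenes were 2441 to 2459 bp long and their starts lay 5406 to 5439 bp apart. Peak pairs 2 to 20 kb apart fell at 1 distance, 5427 bp within 50 bp, in 13 of 131 pairs (9.92%), against a median of 2.87% for the commonest distance over the 89 windows and 5.19% in the next highest. In each pseudogene a peak lay near the middle, with a pileup between 213 and 246 reads, and 21 of the 25 peaks had the lowest background. The sequences of these pseudogenes were not compared. Reads can be placed on any copy where copies are near-identical, so the 6 are not taken as separate observations.

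**Figure D5:**
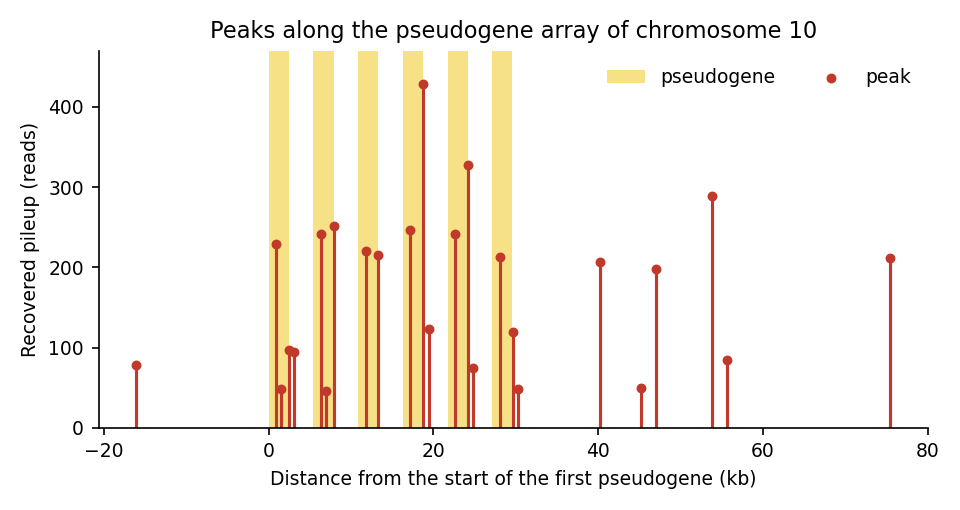
Recovered pileup in reads (vertical axis) of the 25 peaks of the crowded window without a protein-coding gene, against distance in kb from the start of the first pseudogene (horizontal axis); shaded bands are the 6 pseudogenes. Peaks recur with the bands, and 16 of the 25 lie between the start of the first and the end of the last pseudogene.

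In chr10:83400001-83500000, where Aldh1l2, a mitochondrial folate enzyme, only reaches into the window, 29 of 31 peaks lay outside genes. The window of Agrn, Isg15, Rnf223 and 9430015G10Rik had 18 of 28 peaks outside genes and a median fold of 8.21. The pair of windows with the chromosome 6 gene models held the 5 highest peaks by fold of all crowded windows, with folds from 105 to 151. Their pileups ran from 1886 to 2022 reads, against a median of 131 over peaks of crowded windows. The identical starts of Gm40367, Gm36327 and Gm40364 lie in the first of these windows. The part of repeated sequence in these folds was not tested. In the second window only 11.1% of peaks had the lowest background. That window also had the highest median fold of the 89, 31.7. Fewer than 50% of peaks had the lowest background in 2 further windows. In that of Pcdha1 to Pcdha9, 6 of 24 did, with a median width of 806 bp and a median fold of 9.49. In that of Plec, the linker protein plectin, Eppk1 and BC024139, 8 of 24 did, with a median fold of 6.64, the lowest of the 89. A fold is peak over background, and in these 2 windows both were high. Median pileups were 289 and 371.5 reads, against 131 over peaks of crowded windows. Median backgrounds were 25.9 and 61.6 reads, against the lowest value of 6.37. The source of the high background was not tested.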

How the data were processed

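MBD-seq was deposited for 6 samples, control (n = 3) and cKO (n = 3), and 1 peak list for the series was used. The submitters' processing notes name fastp, Bowtie2 and MACS2, and the builds mm10 and GRCm38, without versions or roles. Per the file headers and values, the deposited columns follow the narrowPeak layout under other names. The authors' fold enrichment is a ratio, peak over background, their −log10 values are those of p and q per peak, and the score they deposited equals 10 times −log10 q without its decimals. Deposited positions are starts, ends and summit offsets; starts are printed 1-based. Per the peak names, 3 datasets were merged with Samtools before calling. The lowest −log10 q was 20.0.

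The list analysed ended in 1 incomplete line, left out, and covers chromosomes 1 to 5, 10 to 19, chromosome 6 up to position 88818859 and 15 unplaced contigs. Pileup and background were recovered from fold and p under the Poisson formula of MACS, matching 99.97% of peaks, with 25 unmatched. On 5000 peaks simulated with the same formula 100.0% of pileups were recovered. The simulation checks the calculation, and not whether the deposited values follow the formula. Gene positions, promoters and microRNAs came from RefSeq tables of GRCm38.p6. A gene belonged to the window of its midpoint, and a start was overlapped when a peak shared at least 1 bp with its 300-base promoter. Python 3.11.15, pandas 2.3.3, numpy 2.4.6, scipy 1.17.1 and matplotlib 3.10.9 were used.

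Named items are the 10 fullest windows, the 10 genes with most peaks from crowded windows, the 5 highest peaks, the 5 longest runs (ordered by windows, then peaks) and members of the listed families and lists. Of these, 1 gene is not reported here. Items outside it were chosen after their values were seen. They are the gene starts printed, the microRNAs, the windows that departed from the rest and the genes of the closing observations. The members and all lists were chosen with earlier results of these data known. A test of control against cKO on counts, with leave-one-out fits and a replicate block, had been planned but needs values per sample and was not computed. Alternatives changed the threshold, the window origin, the placing of peaks, merging, filters on q and background, gene assignment and the comparison windows. They are reported in the closing section. Those on CpG were added after seeing the data.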

Additional observations from a re-analysis of the deposited data

Results flagged for a closer look

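The unplaced contigs stood outside the rule, which kept only chromosomes. The fullest 100 kb window of a contig held 13 peaks, above the median of 3 in sparse windows and below the threshold of 24, and the next held 12. The 13 peaks had a median fold of 9.05, and 4 of them (30.8%) had the lowest background.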

How the results depend on the processing

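No paired analysis was possible because peaks carry no values of single samples; leaving out replicates was not possible for the same reason. Numbers of crowded windows and peaks followed the settings. They were 216 and 5221 at a threshold of 20, 42 and 1340 at 28, 38 and 1008 with peaks within 500 bp merged, 21 and 582 with a −log10 q of at least 50, and 52 and 1417 with the lowest background only. Differences between crowded and sparse windows, in percentage points, kept their direction under every alternative run. For windows holding a protein-coding midpoint the difference was 42.5, and 50.8 with windows shifted by 50000 bp and 31.9 at the q filter. For peaks in gene bodies it was 36.7, and 33.9 at a threshold of 20, 34.3 at the q filter, 34.8 with the lowest background only, 30.0 against windows of 1 to 23 peaks and 43.5 for protein-coding bodies. For the protein-coding share of genes it was 18.2, and 26.4 after merging and 24 with the lowest background only. For the lowest background it was 14, and 12.3 at a threshold of 28, 12.4 after merging and 10.6 against windows of 1 to 23 peaks. The causes were not tested. For starts with at least 15 CpG the difference was 21.3, and 16.9 to 22.4 under the 3 alternatives run, all added after seeing the data. No CpG-rich start was overlapped under any of these 3. With a threshold of 20 this was 0 of 293, which allows up to 1.02% (3 counts of the total). Starts of 1 gene are counted separately, and at the threshold of 24 the 100 CpG-rich starts came from 84 genes. The counts are thus not independent, and no difference from sparse windows is read from this limit. Without values per sample, no spread between animals could be given.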

Other observations

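Further genes with many peaks in crowded windows were picked after their values were seen, with no common theme tested. Hspg2, which encodes the matrix proteoglycan perlecan, had 28 peaks there with folds from 6.24 to 47.2 and a median of 24.3, all at the lowest background. Fbn2, the microfibril protein fibrillin 2, had 25 of its 29 peaks there, with a median fold of 16.0. Kmt2d, a histone H3 lysine methyltransferase, had 19 peaks, its whole number, at 44.8 per 100 kb of gene. Drosha, the nuclease that releases microRNA hairpins, had 22 of 35 peaks with a median fold of 19.7. Dync1h1, the cytoplasmic dynein heavy chain, is no member of the Dnah family and had 28 peaks at 42.7 per 100 kb. Flnc, the muscle filamin, had 16 peaks within 28.7 kb, which is 55.7 per 100 kb of gene. Plec had 18 peaks from its crowded window with a median fold of 4.02 and a median pileup of 378.5 reads. The lowest background was that of 27.8% of them.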
